A study of Homo sapiens with 4 samples.

Results

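The genes described here are 10 heat shock chaperone genes and regulators, taken by name from a table of 61860 genes. They are the HSP70 gene HSPA8, the HSP70 exchange factors HSPH1, HSPA4 and BAG3, the HSP90 genes HSP90AA1 and HSP90AB1, the small heat shock gene HSPB1, the chaperonin genes HSPD1 and HSPE1, and the transcription factor gene HSF1. All 10 have a row in the table and all passed the filter on low counts. Most encode cytosolic proteins, whereas the products of HSPD1 and HSPE1 work in the mitochondrial matrix. RNA-seq counts came from HT1376, an established bladder cancer cell line, kept 48 h with 1 nM enfortumab vedotin (EV, 2 samples) or with the control labelled WFI (2 samples). EV is an antibody-drug conjugate that binds nectin-4 on the cell surface and carries monomethyl auristatin E, a drug that disrupts microtubules. No other agent or genetic change is given for either group, and nothing in the labels says that the 2 samples of a group were separate cultures. The spread behind the p-values is thus that of these samples alone, and it may be technical.

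Heat shock proteins bind unfolded polypeptides and help them reach or regain their fold. HSP70 proteins hold short hydrophobic stretches in a cycle driven by ATP, in which J-domain proteins load the client and nucleotide exchange factors release it. HSP90 proteins act later, on kinases, steroid receptors and other nearly folded clients, with the help of cochaperones. HSF1 is kept inactive by chaperones in unstressed cells and, once freed by unfolded protein, binds arrays of inverted GAA units, the heat shock element, upstream of these genes. Tubulin, the protein bound by the EV payload, folds with the help of a cytosolic chaperonin.

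The bases before the start sites of these genes were examined for the heat shock element, as a description without a test. RefSeq promoter windows (GRCh38.p14, 250 bases before to 50 bases after a start site) were matched by symbol for 9 of the 10 genes, all but HSF1. The element was searched as 3 alternating units, GAANNTTCNNGAA, or on the other strand TTCNNGAANNTTC. It was found in a window of 4 of the 9 genes, HSPA8, HSP90AA1, HSP90AB1 and HSPD1, against 166 of 27305 genes with a window in the whole table (0.608%). The windows of these 4 genes and of the 2 genes with the largest rise, BAG3 and HSPH1, are shown as the 250 bases before the start site, with elements in capitals.
HSPA8 (chr11:123062137-123062386, minus strand): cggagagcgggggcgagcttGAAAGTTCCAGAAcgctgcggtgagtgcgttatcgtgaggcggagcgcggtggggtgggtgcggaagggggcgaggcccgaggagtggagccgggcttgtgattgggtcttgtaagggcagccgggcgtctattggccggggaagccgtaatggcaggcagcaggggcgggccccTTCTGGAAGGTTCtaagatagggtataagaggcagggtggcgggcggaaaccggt
HSP90AA1 (chr14:102087045-102087294, minus strand, the second of 2 start sites): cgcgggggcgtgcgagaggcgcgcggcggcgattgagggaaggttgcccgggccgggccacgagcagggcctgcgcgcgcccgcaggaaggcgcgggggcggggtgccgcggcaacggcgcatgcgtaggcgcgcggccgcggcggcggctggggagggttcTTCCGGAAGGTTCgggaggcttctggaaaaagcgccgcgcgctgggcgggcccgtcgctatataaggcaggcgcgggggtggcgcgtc
HSP90AB1 (chr6:44247693-44247942, plus strand, the third of 3 start sites): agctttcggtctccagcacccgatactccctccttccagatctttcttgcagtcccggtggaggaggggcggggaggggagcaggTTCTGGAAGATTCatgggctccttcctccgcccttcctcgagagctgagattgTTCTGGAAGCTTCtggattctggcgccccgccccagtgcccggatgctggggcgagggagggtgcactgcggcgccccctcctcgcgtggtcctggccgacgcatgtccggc
HSPD1 (chr2:197499841-197500090, minus strand, the second of 2 start sites): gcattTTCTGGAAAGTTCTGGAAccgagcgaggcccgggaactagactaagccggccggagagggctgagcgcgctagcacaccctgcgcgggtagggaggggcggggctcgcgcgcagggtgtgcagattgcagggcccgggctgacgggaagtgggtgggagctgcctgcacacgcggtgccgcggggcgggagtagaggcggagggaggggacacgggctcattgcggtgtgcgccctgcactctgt
BAG3 (chr10:119651130-119651379, plus strand): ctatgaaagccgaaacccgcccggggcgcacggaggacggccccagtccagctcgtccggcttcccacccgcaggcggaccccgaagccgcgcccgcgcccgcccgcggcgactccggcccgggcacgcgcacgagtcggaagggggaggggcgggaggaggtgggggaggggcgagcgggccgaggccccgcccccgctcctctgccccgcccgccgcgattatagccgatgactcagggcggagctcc
HSPH1 (chr13:31162389-31162638, minus strand): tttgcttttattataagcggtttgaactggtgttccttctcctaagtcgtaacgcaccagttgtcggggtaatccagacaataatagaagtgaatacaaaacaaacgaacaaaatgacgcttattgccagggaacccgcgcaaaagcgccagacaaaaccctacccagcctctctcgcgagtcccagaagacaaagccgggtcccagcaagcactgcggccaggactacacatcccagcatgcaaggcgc

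Counted back from the RefSeq start site of each window, the HSPA8 elements lie at -230 to -218 and at -55 to -43. The element of HSP90AA1 lies at -88 to -76, and those of HSP90AB1 at -165 to -153 and -112 to -100. The HSPD1 elements, at -245 to -233 and -240 to -228, overlap and together form a run of 18 bases. By the RefSeq start sites of the HSPD1 window shown and of HSPE1, these genes are neighbours on chromosome 2 that are transcribed away from each other. The same run (197500068 to 197500085) lies at -311 to -294 from the RefSeq start site of HSPE1 at 197500379, outside the HSPE1 window. The GENCODE annotation used for gene positions starts HSPE1 further upstream, at 197499994, so that by it the run lies within the gene. By it HSPE1 also lies within the span of HSPD1, on the opposite strand. The elements of HSPA8, HSP90AA1, HSP90AB1 and HSPD1 likewise lie within their own genes by GENCODE, because each gene span begins further upstream than the RefSeq start site used. BAG3 and HSPH1 hold no such letters in the bases shown, nor do HSPA4, HSPB1 and HSPE1 in theirs. The search allowed no mismatch within the units, and it also found none in the windows of the heat-inducible genes HSPA1A, HSPA1B and DNAJB1. It therefore cannot show that a gene lacks a heat shock element. Pairs of units, a looser motif that every 3-unit match contains, were found for 5 of the 9 genes (HSPB1 in addition), against 16.2% of all genes with a window. A match describes letters only, and no binding was measured here.

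All 10 genes were higher in EV-treated cells. In edgeR's quasi-likelihood test each passed an adjusted p of 0.05, while 34.5% of the 17465 genes tested were called higher and 31.5% lower. The log2 fold changes, EV over WFI, ran from 0.43 for HSPA4 to 2.47 for BAG3, with a median of 0.91 against 0.02 over all genes tested. In TMM-scaled CPM, the usual depth-corrected count, both EV samples stood above both WFI samples for all 10 genes, as they did for 42.1% of the genes tested. A log2 fold change of 1 or more was reached by 3 of the 10, BAG3, HSPH1 and HSP90AB1, against 17.5% of all genes. Together the 10 genes took 1.18% and 1.15% of all counts in the EV samples, against 0.583% and 0.580% in the WFI samples.

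**Figure D1:**
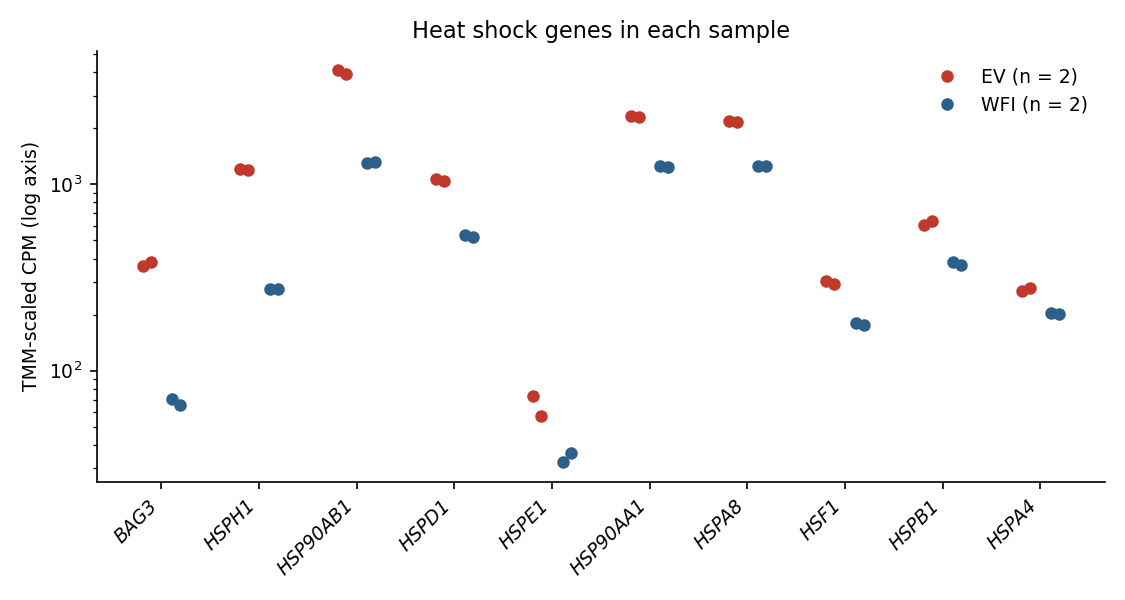
Each point is the TMM-scaled CPM of a sample (log axis), with the EV samples left of the WFI samples for each gene and genes ordered by fold change. The groups do not overlap for any of the 10 genes, and the gap is widest for BAG3 (366 and 386 CPM in EV, 70.2 and 65.8 CPM in WFI) and narrowest for HSPA4 (268 and 277 CPM in EV, 204 and 202 CPM in WFI).

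HSPA8 (chromosome 11, 123057489 to 123063230, minus strand, hg38), the constitutive cytosolic HSP70, had 2194 and 2155 CPM in EV, against 1259 and 1258 CPM in WFI. The groups are well apart and the replicates within each close together. The difference is a 1.73-fold rise (log2 fold change 0.79, SE 0.02, edgeR adjusted p = 2.98e-10). The stress-inducible HSP70 genes HSPA1A and HSPA1B could not be read. HSPA1A had 2 and 0 counts in EV and 1 and 1 counts in WFI, and HSPA1B had 0 counts in all 4 samples. Both lie on chromosome 6 between 29 and 33 Mb, where only 2 of 153 protein coding genes reached 10 counts in each sample. Elsewhere on chromosome 6 the number was 511 of 886. HSPA6, a strictly inducible HSP70 gene on chromosome 1 chosen here after its values were seen, had 66 and 92 counts in EV, against 27 and 15 counts in WFI. Its level was low, at 4.19 ± 0.794 CPM in EV and 1.01 ± 0.417 CPM in WFI (SD, n = 2 each), and it rose with a log2 fold change of 2.05 (SE 0.38, edgeR adjusted p = 0.00072), or 1.47 after a correction for length and GC content (edgeR adjusted p = 0.00572).

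Of the factors that release clients from HSP70, 2 rose several-fold and HSPA4 had the smallest fold change of the 10 genes. BAG3 (chromosome 10, 119651370 to 119677819, plus strand), a cochaperone that links HSP70 to small heat shock proteins and to selective autophagy, had 366 and 386 CPM in EV, against 70.2 and 65.8 CPM in WFI. That is 5.53-fold higher (log2 fold change 2.47, SE 0.05, edgeR adjusted p = 8.7e-12), and 90.9% of the genes tested had a smaller log2 fold change. HSPH1 (chromosome 13, 31134974 to 31162388, minus strand), an HSP110 exchange factor, had 1217 and 1192 CPM in EV, against 276 and 275 CPM in WFI. Its replicates differed little in either group, and the gap was 4.37-fold (log2 fold change 2.13, SE 0.03, edgeR adjusted p = 8.08e-13). HSPA4 (chromosome 5, 133051962 to 133106449, plus strand), the other HSP110 factor in the set, had 268 and 277 CPM in EV, against 204 and 202 CPM in WFI. The groups did not overlap, and the rise was 1.35-fold (log2 fold change 0.43, SE 0.04, edgeR adjusted p = 2.12e-06).

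The ratio of an exchange factor to HSPA8 can be taken within a sample, where library scaling drops out. On counts per kilobase of merged exons, HSPH1 stood at 0.321 and 0.320 of HSPA8 in EV, against 0.127 and 0.127 in WFI. BAG3 stood at 0.295 and 0.316 of HSPA8 in EV, against 0.0984 and 0.0923 in WFI. The ratio to HSPA8 was thus 2.53 times higher in EV for HSPH1 and 3.20 times higher for BAG3. HSPA4 went the other way, at 0.115 and 0.121 of HSPA8 in EV, against 0.152 and 0.151 in WFI, a fold of 0.778. For these 3 ratios the groups did not overlap, and the two-sided exact permutation p was 0.333, the smallest that 2 samples against 2 allow. Of the 5 ratios examined none can pass a threshold of 0.05 in this design, with or without adjustment.

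**Figure D2:**
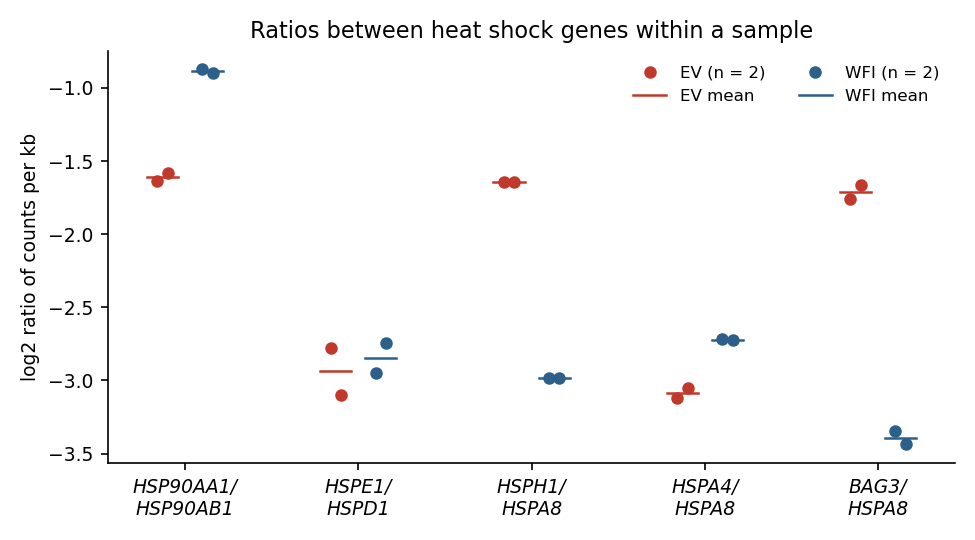
Each point is the log2 ratio of counts per kilobase of 2 genes in a sample, EV left of WFI, with a line at the mean of 2 samples. HSPH1 and BAG3 relative to HSPA8 are higher in EV, HSP90AA1 relative to HSP90AB1 and HSPA4 relative to HSPA8 are lower in EV, and HSPE1 relative to HSPD1 overlaps between the groups.

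Of the cytosolic HSP90 genes, HSP90AB1, generally described as the constitutive form, had a larger fold change than HSP90AA1, generally described as the inducible form. HSP90AB1 (chromosome 6, 44246166 to 44253888, plus strand) had 4095 and 3928 CPM in EV, against 1300.1 and 1314 CPM in WFI. It was 3.07-fold higher (log2 fold change 1.62, SE 0.03, edgeR adjusted p = 1.85e-12) and ranked 8 and 9 among all genes by counts in the EV samples, against 33 and 33 in the WFI samples. HSP90AA1 (chromosome 14, 102080738 to 102139699, minus strand) had 2322 and 2313 CPM in EV, against 1249 and 1243 CPM in WFI, with replicates close in both groups. Its rise was 1.86-fold (log2 fold change 0.90, SE 0.02, edgeR adjusted p = 8.85e-11). Per kilobase, HSP90AA1 stood at 0.322 and 0.334 of HSP90AB1 in EV, against 0.546 and 0.537 in WFI, a fold of 0.606 (two-sided exact permutation p = 0.333). The reads of HSP90AA1 and HSP90AB1 can be shared with processed copies elsewhere in the genome, whose rows together came to 0.552% and 0.540% of HSP90AA1 counts in EV and 0.81% and 0.95% in WFI. For HSP90AB1 such rows came to 0.368% and 0.346% in EV and 0.346% and 0.407% in WFI. How reads matching several copies were counted is not given in the sources used here.

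HSPB1 (chromosome 7, 76302544 to 76304295, plus strand) encodes the small heat shock protein HSP27, which holds unfolded proteins without ATP. It had 604 and 637 CPM in EV, against 383 and 368 CPM in WFI. The groups were apart, with a 1.65-fold rise (log2 fold change 0.73, SE 0.04, edgeR adjusted p = 1.99e-08). Of the 10 genes it has the shortest merged exons, 1634 bases, and its longest transcript has a GC content of 64.3%. After the correction for spliced length and GC content its log2 fold change was 0.04 (SE 0.03, edgeR adjusted p = 0.309), and the call was lost.

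Both mitochondrial chaperonin genes rose. HSPD1 (chromosome 2, 197486581 to 197516737, minus strand), which encodes the chaperonin HSP60, had 1069.9 and 1045 CPM in EV, against 538 and 519.5 CPM in WFI. This is a fold of 2.00 (log2 fold change 1.00, SE 0.03, edgeR adjusted p = 2.99e-10). HSPE1 (chromosome 2, 197499994 to 197503457, plus strand), which encodes its lid-forming partner HSP10, had 72.8 and 56.9 CPM in EV, against 32.4 and 36.1 CPM in WFI. Relative to their mean its replicates spread most of the 10 genes, and it was 1.89-fold higher (log2 fold change 0.92, SE 0.11, edgeR adjusted p = 3.09e-05). After the correction for length and GC content the log2 fold change was 0.87 for HSPD1 and 0.43 for HSPE1 (edgeR adjusted p = 4.27e-10 and 0.00521). The ratio of HSPE1 to HSPD1 per kilobase was 0.146 and 0.117 in EV, against 0.129 and 0.149 in WFI. These values overlap, with a difference of -0.088 on the log2 scale, EV minus WFI (two-sided exact permutation p = 0.667). The difference was 0.073 without EV replicate 2 and 0.015 without WFI replicate 2. The annotated exons of HSPD1 and HSPE1 share 281 bases on opposite strands, and the strand setting of the counting is not given in the sources used here. Rows for processed copies came to 1.51% and 2.82% of HSPE1 counts in EV and 4.78% and 4.64% in WFI.

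HSF1 (chromosome 8, 144291591 to 144314722, plus strand), the transcription factor that drives the heat shock response, had 304 and 290.4 CPM in EV, against 179 and 175 CPM in WFI. The groups did not overlap, and the rise was 1.68-fold (log2 fold change 0.75, SE 0.04, edgeR adjusted p = 3.57e-08). Corrected for length and GC content, HSF1 stood at 0.38 (edgeR adjusted p = 2.13e-05). The activity of HSF1 is controlled mainly on the protein, which was not measured. Its exons share 139 bases with those of DGAT1 on the opposite strand, a gene with 1190 and 1370 counts in EV and 764 and 851 counts in WFI. HSP90AA1 likewise shares 197 bases with WDR20.

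**Figure D3:**
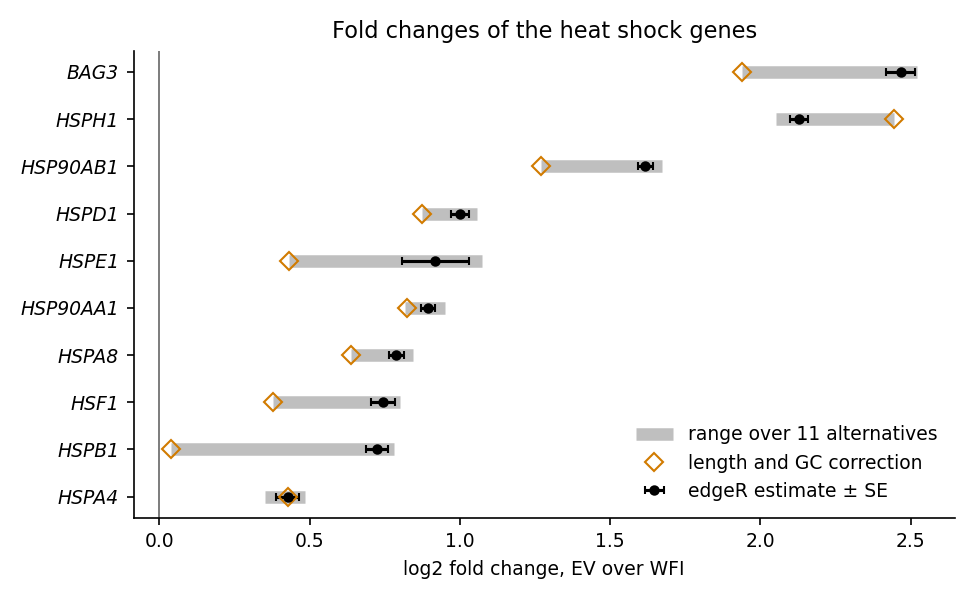
Black points are log2 fold changes of each gene, EV over WFI, with the standard error from edgeR. Grey bars span 11 alternative analyses and diamonds mark the correction for length and GC content. BAG3, HSPH1 and HSP90AB1 lie above 1 under every one of them, and HSPB1 comes closest to 0, at 0.04 under the correction.

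Compared per kilobase of merged exons, the order of levels in EV began with HSP90AB1 at 1346 ± 39.7 CPM per kilobase, HSPA8 at 449 ± 5.69, HSP90AA1 at 442 ± 1.18 and HSPB1 at 379.8 ± 14.2 (SD, n = 2 each). In WFI the same 4 genes led, at 439 ± 3.31, 259.5 ± 0.223, 237 ± 0.788 and 229.6 ± 6.37 CPM per kilobase. HSPA8 and HSP90AA1 differ in EV by about the spread of their samples, and HSP90AA1 and HSPB1 in WFI by little more. BAG3 stood at position 7 of 10 in EV and position 9 in WFI, and HSPE1 was last in both, by this length. The merged exons include rare isoforms, and on the longest annotated transcript HSPA8 led in WFI, at 511 ± 0.439 against 489 ± 3.69 CPM per kilobase for HSP90AB1. By that length HSPA8 and HSP90AA1 stood further apart in EV, at 883 ± 11.2 and 660.3 ± 1.76 CPM per kilobase, HSPE1 was at position 9 in both groups, and the last place was held by HSPA4 in EV and by BAG3 in WFI.

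The lists of related genes that are not among the 10 differed from each other, and the further HSP70 and HSP110 genes moved in both directions. Of 14 further HSP70 and HSP110 genes, 10 passed the filter on low counts. Of these, 4 were called higher and 2 lower, 4 missed the threshold, and the median log2 fold change was 0.51. These shares lie close to the 34.5% higher and 31.5% lower of all genes tested. HYOU1, an exchange factor of the endoplasmic reticulum, had 361 and 386 CPM in EV, against 252 and 254 CPM in WFI (log2 fold change 0.56, SE 0.04, edgeR adjusted p = 3.53e-07). HSPA14, a ribosome-associated HSP70, rose by 1.01 and HSPA13, a microsomal HSP70, fell by 0.54 on the log2 scale. HSPA5 (BiP), the main HSP70 of the endoplasmic reticulum and chosen after its values were seen, had 917 and 915 CPM in EV, against 1019 and 1056 CPM in WFI (log2 fold change -0.18, SE 0.03, edgeR adjusted p = 0.000204). HSPA9, the mitochondrial HSP70 and chosen likewise, had 361 and 366 CPM in EV, against 369 and 353 CPM in WFI (log2 fold change 0.01, SE 0.04, edgeR adjusted p = 0.835), although after the correction for length and GC content it was called higher (0.20, edgeR adjusted p = 0.000328). Of the noncytosolic HSP90 genes, mitochondrial TRAP1 rose by 0.58 on the log2 scale (0.29 after that correction), and HSP90B1 of the endoplasmic reticulum stood at 831 ± 18.0 CPM in EV and 819 ± 1.48 CPM in WFI (SD, n = 2 each). HSP90B1 did not pass the test (log2 fold change 0.02, edgeR adjusted p = 0.544), but did with upper quartile scaling (0.08, edgeR adjusted p = 0.0402). Under that scaling the median over all genes tested was also 0.08.

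Of 9 further small heat shock genes, 5 passed the filter. Of these, 4 were called higher, beside 34.5% of all genes tested. HSPB11, whose current symbol is IFT25, was not called (log2 fold change 0.20, edgeR adjusted p = 0.0688). The 4, HSPB6, HSPB8, HSPB9 and CRYAB, had few counts. CRYAB had 46 and 24 counts in EV, against 17 and 14 counts in WFI (log2 fold change 1.33, SE 0.50, edgeR adjusted p = 0.0379). HSPB9 and HSPB6 passed the filter through their EV samples, so the list's count is a description only. HSPB8, a partner of BAG3 in selective autophagy, had 112 and 209 counts in EV, against 22 and 13 counts in WFI (log2 fold change 3.32, SE 0.38, edgeR adjusted p = 1.63e-05). HSPB9 had 71 and 55 counts in EV, against 5 and 5 counts in WFI (log2 fold change 3.77, SE 0.47, or 3.15 after the correction for length and GC content), and HSPB6 had 16 and 38 counts in EV, against 1 and 3 counts in WFI (3.80, SE 0.78, and 3.10 to 4.67 over 10 alternatives). Among the other 5 BAG genes, 4 were tested. BAG1 rose by 1.27 on the log2 scale, BAG5 and BAG4 fell by 0.98 and 0.78, and BAG2 did not pass (0.25, edgeR adjusted p = 0.0676). Over all genes tested, 34.5% were called higher and 31.5% lower, and 4 genes are too few to be set apart from those shares. BAG6, in the region of chromosome 6 named above, had 11 and 3 counts in EV and 1 and 8 counts in WFI.

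Of 21 cochaperones of HSP70 and HSP90 without a J domain, all of which were tested, 18 were called higher, 0 lower and 3 not called. The median log2 fold change was 0.50, and 34.5% of all genes tested were called higher. AHSA1, which stimulates the ATPase of HSP90, stood apart from the rest of its list. It had 465 and 459.6 CPM in EV, against 86.2 and 83.1 CPM in WFI (log2 fold change 2.45, SE 0.04, edgeR adjusted p = 1.89e-12). PTGES3 (p23), which stabilises the closed form of HSP90, rose by 0.69 on the log2 scale (SE 0.03, edgeR adjusted p = 1.24e-08). FKBP8, a membrane-anchored immunophilin, rose by 0.59 (SE 0.03), but after the correction for length and GC content stood at 0.00 (edgeR adjusted p = 0.942). Under that correction 13 members of the list were called higher and 3 lower, beside 4782 higher and 6284 lower of 17073 genes. Of 5 further heat shock factors and regulators, 4 were tested. HSBP1, which binds the HSF1 trimer, rose by 0.64, HSF4 fell by 1.07 and HSF2 did not pass (0.14, edgeR adjusted p = 0.40).

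Of 16 other heat-inducible genes that HSF1 is known to act on, 4 of which (HSPA4L, CRYAB, CHORDC1 and CACYBP) also stand in the lists above, 14 were called higher, 1 lower and 1 not called, beside 34.5% higher and 31.5% lower over all genes tested. The median log2 fold change was 0.69. After the correction for length and GC content, 9 were higher and 3 lower, beside 4782 higher and 6284 lower of 17073 genes. DNAJA1, a J-domain cochaperone, had 1200.2 and 1182 CPM in EV, against 250.5 and 248 CPM in WFI (log2 fold change 2.26, SE 0.03, edgeR adjusted p = 5.76e-13). UBB, a ubiquitin gene, rose by 1.64 on the log2 scale (SE 0.04, edgeR adjusted p = 1.44e-10), with the reservation that its reads can match near-identical copies. DNAJB1, a classical heat shock J-domain gene chosen after its values were seen, was nearly level, with 167 and 159 CPM in EV, against 150.2 and 151 CPM in WFI. Its log2 fold change of 0.11 (SE 0.04, edgeR adjusted p = 0.0481) lost the call with DESeq2, with no count filter, with a replicate block and without EV replicate 1, WFI replicate 1 or WFI replicate 2. After the correction for length and GC content it reversed (-0.27, edgeR adjusted p = 0.000206). SERPINH1, a collagen chaperone chosen likewise, fell by 0.28 on the log2 scale (SE 0.05, edgeR adjusted p = 0.000561).

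**Figure D4:**
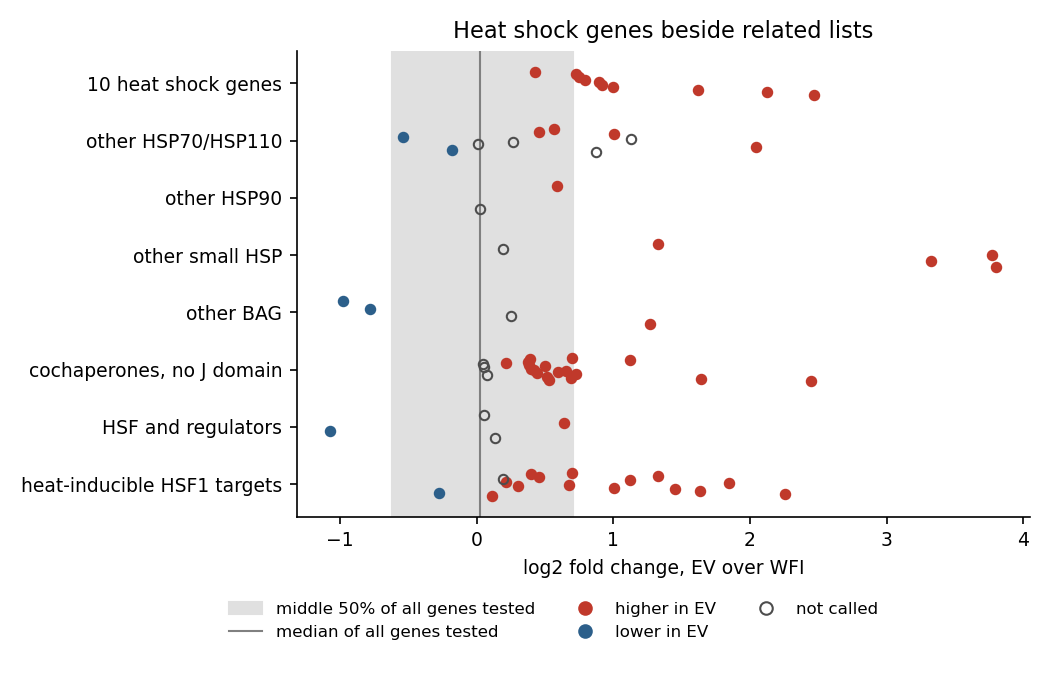
Each point is a tested gene, placed by its log2 fold change, EV over WFI, with filled points for genes called higher or lower and open points for genes not called. The grey band holds the middle 50% of all genes tested. All 10 heat shock genes lie above 0, as do all tested genes of the other HSP90, small heat shock and cochaperone lists. The other HSP70, BAG, heat shock factor and HSF1 target lists hold genes on both sides.

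Libraries held 19368791 and 20727175 counts in EV and 19447577 and 19669037 counts in WFI, and 29456 and 28770 genes in EV and 26258 and 26587 genes in WFI had a count. The labelled cells expressed the epithelial keratins KRT7, KRT8 and KRT18 at 7933 counts or more in every sample. CDH1 had only 0 to 9 counts and KRT19 0 to 6. Of the urothelial markers, KRT20 had 0 counts in all 4 samples, whereas PPARG had 731 to 840 counts and FOXA1 444 to 816. GATA3 had 183 and 195 counts in EV, against 16 and 19 counts in WFI. UPK1A, UPK1B, UPK2 and UPK3A had 0 to 21 counts in a sample. The mesenchymal gene VIM had 36038 and 37508 counts in EV and 35700 and 35984 counts in WFI. Of 6 leukocyte markers, 3 could be tested, of which CD79A and ITGAM passed the filter through their EV samples, and the list summed to 42.9 and 43.1 CPM in EV, against 1.55 and 2.29 CPM in WFI, with the defining marker PTPRC at 4 and 9 counts in EV and 1 and 3 counts in WFI. Of 3 basal markers, 2 passed the filter, through their EV samples, and the list summed to 7.31 and 9.09 CPM in EV, against 0 CPM in both WFI samples. The 6 epithelial markers summed to 3355 and 3391 CPM in EV, against 1565 and 1547 CPM in WFI. The 3 mesenchymal markers summed to 7459 and 7357 CPM in EV, against 11971 and 11813 CPM in WFI. Of these 3, FN1 was called lower (log2 fold change -0.92, mean 5298 CPM in EV and 10014 CPM in WFI). VIM was called higher (log2 fold change 0.18) and CDH2 was not called (-0.04). The 8 urothelial markers summed to 93.8 and 97.4 CPM in EV, against 58.4 and 59.5 CPM in WFI. Fibroblast markers summed to 10.2 and 7.33 CPM in EV and 8.04 and 10.0 CPM in WFI, and endothelial markers to 4.73 and 6.09 CPM in EV and 1.40 and 2.34 CPM in WFI. The part of these lists in the results was not tested. In bulk samples a change in the number of cells of a kind and a change of RNA per cell cannot be told apart.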

How the data were processed

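The deposited table holds raw counts per gene for 4 samples, with no normalization by the authors. Libraries came from total RNA and a directional kit, per the labels' protocols. The build, hg38, is named in the submitters' processing notes. Which aligner, counter, strand option and gene annotation the authors used is not given in the sources used here. Gene positions, merged exon lengths and transcript GC content came from GENCODE release 29 on that build.

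Counts were tested with edgeR 4.0.16 in R 4.3.3 (TMM scaling, filterByExpr, quasi-likelihood test, group as the only term), which left 17465 genes. Benjamini-Hochberg adjustment ran over all of them, and an adjusted p below 0.05 was called. The SE is the log2 fold change divided by the square root of F. Library totals were 19368791 to 20727175 counts. Within a group the samples differed beyond sampling noise (chi-square over its degrees of freedom 3.78 for EV and 1.92 for WFI), so each was kept as a sample. Ratios were tested by exact permutation with scipy 1.17.1.

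The alternatives changed the tool (DESeq2 1.42.0), the scaling (RLE, upper quartile), the filter (none, or 50 counts in 2 samples) or the design (a replicate block). Others left out a sample in turn, asked for a log2 fold change of at least 1, or corrected each library with offsets from a smooth (mgcv 1.9.3) of its log2 CPM deviations on length and GC content. The edgeR fit was also run on simulated counts with far fewer changed genes than were called here. That run cannot show how the fit performs on data such as these, and no result rests on it. The 10 genes and the lists were chosen with earlier results of these data known. From each other list the text names the 3 tested genes with the smallest adjusted p, of which 1 is not reported here. HSPA5, HSPA6, HSPA9, DNAJB1 and SERPINH1 were added after their values were seen, and HSPB11, CRYAB, BAG2 and BAG6 only to account for a count.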

Additional observations from a re-analysis of the deposited data

How the results depend on the processing

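All 10 heat shock genes kept a positive log2 fold change under each of the 11 alternative analyses, and HSPB1 under the length and GC correction was the only one of them to lose its call. That correction moved the median log2 fold change of all genes to -0.13, against 0.02 without it, so values under it are to be read relative to that shift. With no count filter and with DESeq2, which add genes of low counts, the median over all genes was 0.24 and 0.30, while without a filter it was -0.056 over the 17465 genes of the main analysis. A minimum log2 fold change of 1 left 3 of the 10 genes higher, and 3063 genes higher and 2322 lower in all. In the other lists it left 2 HSP70 and HSP110, 0 HSP90, 3 cochaperone, 0 heat shock factor and 7 HSF1 target genes higher, and 0 HSP70, 0 BAG and 0 HSF1 target genes lower. Of the other HSP90 genes 2 were higher with upper quartile scaling, under which the median log2 fold change of all genes was 0.076. Of the other BAG genes 2 were higher with upper quartile scaling, with the filter of 50 counts and with the length and GC correction. Of the other small heat shock genes 5 were higher with RLE or upper quartile scaling. The number was 3 with DESeq2, with no filter, with the filter of 50 counts and with the length and GC correction. Over all genes 6142 of 17465 were higher with RLE scaling and 6367 with upper quartile scaling. The filter of 50 counts gave 4778 of 12663. DESeq2 and no filter gave 6471 and 6342 of 38205. Under the length and GC correction 13 cochaperones were higher and 3 lower, and 9 HSF1 targets were higher and 3 lower. Over all genes 4782 were higher and 6284 lower under it. DNAJB1 turned to -0.27 there. The cause of these changes was not tested. Leaving out a sample gave ratio differences of HSPE1 to HSPD1 from -0.249 to 0.073.

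Replicate numbers are shared between the groups, but nothing says that they mark a shared culture, and the deviations of same-numbered samples correlated at 0.016 across genes. With a replicate block the 10 genes were all called higher, and 5957 genes were called higher and 5573 lower in all, against 6019 and 5509 without it. Depth does not limit the 10 genes, of which HSPE1 had the fewest counts (669 to 1324 in a sample), whereas 2 samples per group limit every comparison.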

Other observations

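The 3-unit heat shock element was also looked up over all genes, a description chosen after the data were seen. Of 11854 tested genes with a promoter window, 34.8% were called higher in EV and 34.2% lower. Of the 60 that hold the element, 27 (45%) were called higher and 21 (35%) lower, with a median log2 fold change of 0.15. Without HSPA8, HSP90AA1, HSP90AB1 and HSPD1 there were 56, of which 23 (41.1%) were called higher and 21 (37.5%) lower, with a median of -0.037. Among the other listed heat shock genes with a window, 4 of 51 hold it, namely HSPA6, CHORDC1, DNAJA1 and SERPINH1, and SERPINH1 was called lower.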
